A study of Mus musculus with 4 samples.

Results

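The 10 genes described here are targets of the transcription factor p53 in the renal cortex of diabetic and nondiabetic mice: Cdkn1a, Ccng1, Zmat3, Plk2, Aen, Bax, Phlda3, Mdm2, Pmaip1 and Trp53inp1. They were chosen by name, with their differences between diabetic and nondiabetic mice already known, so those differences are given as a description with no test. Each gene had 1 probe, so that 10 of 10032 gene probes and 10 of 9900 genes on the array belong to the set. The symbol of 9 genes came from the platform annotation, and Bax was matched through its RefSeq transcript accession alone.

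Cortex RNA of male C57BL/6J mice was hybridised to 4 one-colour CodeLink bioarrays, 1 per group. DM-WT mice (ICAM-1+/+) received streptozotocin intraperitoneally at 200 mg/kg and 8 weeks of age and were diabetic, and ND-WT mice (ICAM-1+/+) received citrate buffer. DM-KO mice (ICAM-1-/-) received the same streptozotocin dose and were diabetic, and ND-KO mice (ICAM-1-/-) received citrate buffer. Kidneys were taken 12 weeks after the injection, at 20 weeks of age. ICAM-1 is an adhesion molecule that leukocytes bind on their way from blood into tissue, and the ICAM-1-/- mice lack it in the whole body. The labels give 5 mice per group but do not say whether an array held RNA of 1 mouse or of several, so array and group cannot be told apart and no difference between 2 arrays has a replicate check. Mice entered the diabetic groups only with raised blood glucose, and streptozotocin and diabetes therefore come together in every diabetic group.

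p53 is held at a low level by the ubiquitin ligase Mdm2 and accumulates after DNA damage and other stress, when it binds paired copies of a short DNA motif near its target genes. Its targets stop the cell cycle, feed the mitochondrial route to cell death, repair DNA and switch p53 off again. Streptozotocin is a sugar-linked nitrosourea that methylates DNA and enters cells through the glucose transporter GLUT2, which is found on pancreatic beta cells and also on proximal tubule cells of the kidney. Cdkn1a, which encodes the cell cycle inhibitor p21, is the p53 target most often followed in injured kidney.

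The start regions of these genes are shown because the p53 motif is the feature that these genes are known to share. The genes were chosen as known p53 targets, so a match near their starts is not independent of that choice. RefSeq windows of the GRCm38.p6 build, from 250 bases before to 50 bases after an annotated start, were at hand for 7 of the 10 genes, as 9 windows, and the gene spans given below are of the same build. Where the array's probes lie within the genes was not used here. Both strands are covered by the search, since the motif reads alike on either. A full match to the published p53 consensus, a pair of 10-base units set apart by at most 1 base, with the invariant C and G of each unit in place and at most 2 other mismatches, was found in 3 of the 9 windows, in 1 window each of Cdkn1a, Ccng1 and Bax. Of all 32851 mouse windows, 0.682% held such a match. The 250 bases before the start are given below on the strand of the RNA, with the match in capitals, for Cdkn1a at chr17:29090729-29090978 (plus strand), for Ccng1 at chr11:40755287-40755536 (minus strand) and for Bax at chr7:45466899-45467148 (minus strand).
Cdkn1a, upstream one of 2 starts: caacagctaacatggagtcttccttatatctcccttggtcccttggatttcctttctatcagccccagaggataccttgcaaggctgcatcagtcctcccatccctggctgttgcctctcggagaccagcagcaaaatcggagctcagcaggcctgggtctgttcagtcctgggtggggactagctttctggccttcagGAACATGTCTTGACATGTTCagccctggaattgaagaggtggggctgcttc
Ccng1: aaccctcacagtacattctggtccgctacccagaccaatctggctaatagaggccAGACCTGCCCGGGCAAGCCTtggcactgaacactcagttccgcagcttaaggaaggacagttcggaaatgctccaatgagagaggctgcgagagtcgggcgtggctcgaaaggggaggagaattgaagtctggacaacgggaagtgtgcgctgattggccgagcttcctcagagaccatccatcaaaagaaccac
Bax: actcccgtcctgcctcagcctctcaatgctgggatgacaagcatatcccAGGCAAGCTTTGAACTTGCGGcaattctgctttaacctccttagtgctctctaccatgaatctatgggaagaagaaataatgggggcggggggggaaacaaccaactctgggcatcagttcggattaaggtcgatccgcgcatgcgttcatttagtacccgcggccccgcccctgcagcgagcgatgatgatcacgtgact

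The Cdkn1a match, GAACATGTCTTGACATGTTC at chr17:29090928-29090947, had 1 mismatch and ran from position -51 to -32, counted back from the start. The Ccng1 match at chr11:40755462-40755481 also had 1 mismatch and ran from -195 to -176. The Bax match at chr7:45467079-45467099 had 2 mismatches and 1 base between its units and ran from -201 to -181. A single 10-base unit with no mismatch was found in 6 of the 9 windows, against 8.36% of all windows. Besides the 3 genes above, it was present at Aen (GGGCTTGTCC, in both of its overlapping windows) and Mdm2 (GAACTTGCCT, beginning at -186). The windows of Plk2 and Phlda3 and the downstream window of Cdkn1a held neither form. For Zmat3, Pmaip1 and Trp53inp1 no window was at hand. A match is a description of letters, and no binding was measured in these kidneys.

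All values below are log2 intensities after background correction and quantile normalization between arrays. A gene counts as measured on an array if the scanner marked its spot as usable. Where a spot was marked empty the gene was not above background, and a difference is then a lower bound, the bright array's value minus the dim spot's value, or minus that array's faintest usable signal if this is higher. The faintest usable signals lay between 5.99 and 6.06 on the 4 arrays. Repeated spots of 1 bacterial control probe within an array had an SD of 0.0987 on the log2 scale, which gives an SD of 0.140 for a difference between 2 spots on 2 arrays. This spread is that of spots, not of mice. Usable gene probes made up 62.8%, 64.8%, 66.2% and 65.9% of all on DM-WT, ND-WT, DM-KO and ND-KO, and the arrays correlated with r between 0.982 and 0.995 across gene probes. The added bacterial controls were dimmer on DM-WT, at 0.557 of their summed background-subtracted intensity on ND-WT, while DM-KO had 0.948 of that on ND-KO. On DM-WT, 18.1% of 287 probes in columns 44 to 48 of the upper block read below 0.5 of the lowest of the other 3 arrays, against 0.152% of 5930 probes elsewhere, and no probe of the set lay in those edge columns. Icam1 was not analysed here, so its transcript did not check the genotype labels.

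Every gene of the set was higher on the diabetic array than on the nondiabetic array in both genotypes. Among the 8 genes measured on both DM-WT and ND-WT, 8 were higher on DM-WT, and 4 of them (Ccng1, Zmat3, Plk2 and Pmaip1) were higher by at least 1.5-fold, a size reached upward by 1.75% of all 6055 genes measured on both arrays. The other 2, Cdkn1a and Phlda3, were above background on DM-WT alone, and both lower bounds passed 1.5-fold, as did 4.94% of the 162 genes in that position. In mice without ICAM-1, 7 genes were measured on DM-KO and ND-KO, all 7 were higher on DM-KO, and 2 of them (Ccng1 and Zmat3) passed 1.5-fold, against 0.536% of 6339 genes. Cdkn1a, Phlda3 and Mdm2 were usable on DM-KO alone, and 2 of these 3 bounds (Cdkn1a and Phlda3) passed 1.5-fold, against 1.85% of 216 genes. The median log2 difference of the measured genes was 0.65 in WT and 0.55 in KO mice, where all genes had medians of 0.00 and -0.01. Because these contrasts chose the genes, the counts describe the set and are read no further. In bulk cortex, more RNA per cell and more cells of a type cannot be told apart.

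**Figure D1:**
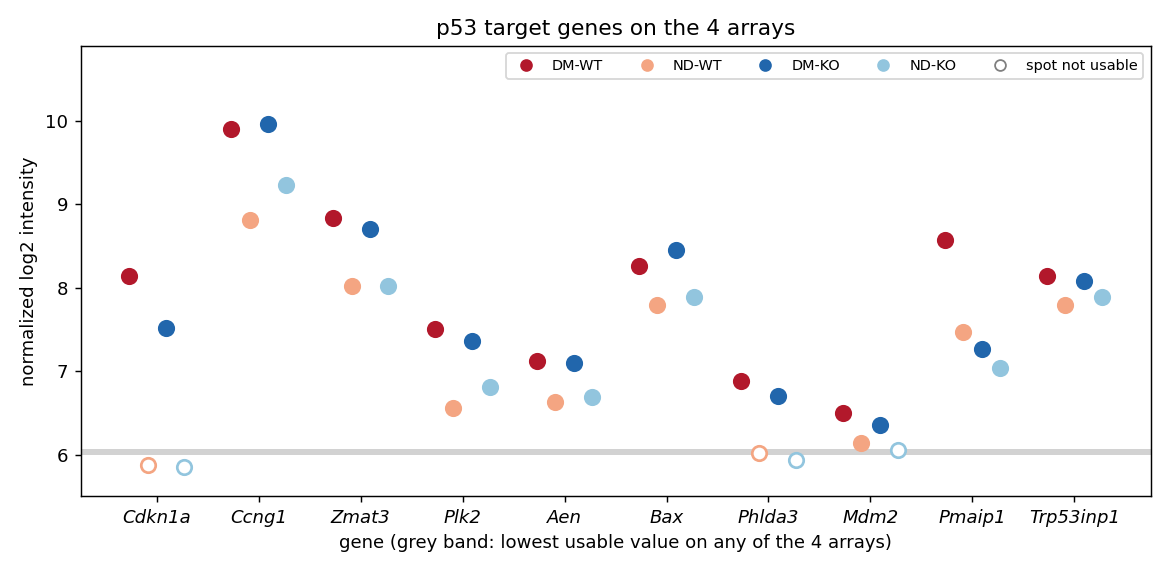
Normalized log2 intensity of each p53 target on the 4 arrays, 1 point per array, with open circles where the spot was not usable and a grey band at the lowest usable values. Cdkn1a and Phlda3 stand clear of the band on DM-WT and DM-KO alone, and Pmaip1 is highest on DM-WT, at 8.57.

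Of the genes that act on the cell cycle, Cdkn1a (chr17:29090979-29100722) encodes p21, which binds and blocks cyclin-dependent kinases. Its log2 intensity was 8.14 on DM-WT and 5.87 on ND-WT, and 7.52 on DM-KO and 5.85 on ND-KO, with both nondiabetic spots marked empty. Before normalization its background-subtracted intensities were 198 on DM-WT and 9 on ND-WT, and 142 on DM-KO and 8.38 on ND-KO. The transcript was thus above background only in diabetic cortex, and the diabetic value was higher by at least 4.28-fold in WT mice and at least 2.84-fold in KO mice. These were the largest lower bounds or differences of the 10 genes in either genotype.

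Ccng1 (chr11:40748552-40755309) encodes cyclin G1, which directs a phosphatase to Mdm2. On the log2 scale it had an intensity of 9.90 on DM-WT and 8.82 on ND-WT, and 9.96 on DM-KO and 9.23 on ND-KO. Both diabetic arrays lay above both nondiabetic arrays, by 2.12-fold in WT mice and 1.65-fold in KO mice. Counted from the highest difference, Ccng1 held place 23 of 6055 genes in WT and place 21 of 6339 in KO mice. ND-KO was higher than ND-WT, while the 2 diabetic arrays were within the spot spread of each other.

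Plk2 (chr13:110395044-110400844), a polo-like kinase induced by stress, had log2 intensities of 7.50 on DM-WT and 6.56 on ND-WT, and 7.36 on DM-KO and 6.81 on ND-KO. Diabetic arrays were again above nondiabetic ones, by 1.92-fold in WT mice and 1.46-fold in KO mice. The ND-KO value was higher than that of ND-WT by 0.25.

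Among the genes of the cell death route, Bax (chr7:45461695-45466903) encodes the protein that opens the outer mitochondrial membrane. The probe read 8.26 on DM-WT and 7.79 on ND-WT, and 8.45 on DM-KO and 7.89 on ND-KO. The diabetic value was 1.47-fold higher in KO mice and 1.38-fold higher in WT mice, and Bax was the only one of the 7 genes measured on all 4 arrays whose difference was larger in KO mice. Bax held place 41 of 6339 in KO mice and place 164 of 6055 in WT mice.

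Pmaip1 (chr18:66458604-66465558) encodes Noxa, a small protein that frees Bax and Bak by binding their guardian Mcl1. Its log2 intensity was 8.57 on DM-WT and 7.47 on ND-WT, and 7.26 on DM-KO and 7.04 on ND-KO. Here DM-WT stood apart from the other 3 arrays, and DM-KO lay below ND-WT. The diabetic value was 1.17-fold higher in KO mice (place 391 of 6339) and 2.15-fold higher in WT mice (place 22 of 6055).

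Aen (chr7:78895927-78911209), a nuclease that cuts DNA during apoptosis, had log2 intensities of 7.12 on DM-WT and 6.63 on ND-WT, and 7.10 on DM-KO and 6.69 on ND-KO. It differed by 1.40-fold in WT and 1.33-fold in KO mice, and its values in the 2 genotypes were close together at each diabetes state.

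Phlda3 (chr1:135766085-135769134) encodes a membrane protein that keeps the survival kinase Akt from its lipid anchor. Its log2 intensity was 6.88 on DM-WT and 6.02 on ND-WT, and 6.70 on DM-KO and 5.94 on ND-KO. Like Cdkn1a it was above background only on the diabetic arrays, by at least 1.79-fold in WT and at least 1.62-fold in KO mice. Its background-subtracted intensities were 59.3 on DM-WT and 15.1 on ND-WT, and 59.3 on DM-KO and 12.5 on ND-KO, so these were dim spots. In the authors' deposited value table the bounds became 4.16-fold in WT and 3.62-fold in KO mice.

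Of the genes that act back on p53, Mdm2 (chr10:117688875-117710758) encodes the ligase that marks p53 for destruction. It gave log2 intensities of 6.50 on DM-WT and 6.13 on ND-WT, and 6.36 on DM-KO and 6.06 on ND-KO, close to the lowest usable values on every array and marked empty on ND-KO. The diabetic value was higher by 1.29-fold in WT mice and by at least 1.23-fold in KO mice.

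Trp53inp1 (chr4:11156441-11174379), a nuclear cofactor of p53, had log2 intensities of 8.14 on DM-WT and 7.79 on ND-WT, and 8.08 on DM-KO and 7.89 on ND-KO. Its differences of 1.28-fold in WT and 1.14-fold in KO mice were the smallest of the measured genes in each genotype. Zmat3 (chr3:32334792-32365665), a zinc finger protein that binds RNA, had log2 intensities of 8.83 on DM-WT and 8.02 on ND-WT, and 8.70 on DM-KO and 8.03 on ND-KO. It was 1.75-fold higher on DM-WT and 1.60-fold higher on DM-KO than on the matching nondiabetic array, and the 2 nondiabetic arrays gave nearly the same value.

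Of the 7 genes measured on all 4 arrays, 6 had both diabetic values above both nondiabetic values, a pattern held by 19.4% of 5914 genes, and Pmaip1 was the exception. Ccng1 and Zmat3 passed 1.5-fold in both genotypes, as did 0.372% of the same genes. The authors' deposited value table, which divides each array by 1 constant and leaves background-subtracted intensities otherwise as they are, gave larger ratios for dim probes. There Plk2 stood at ratios of 2.89 in WT and 1.78 in KO mice and Mdm2 at 1.98 and 1.89, while Ccng1 stood at 2.11 and 1.60.

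**Figure D2:**
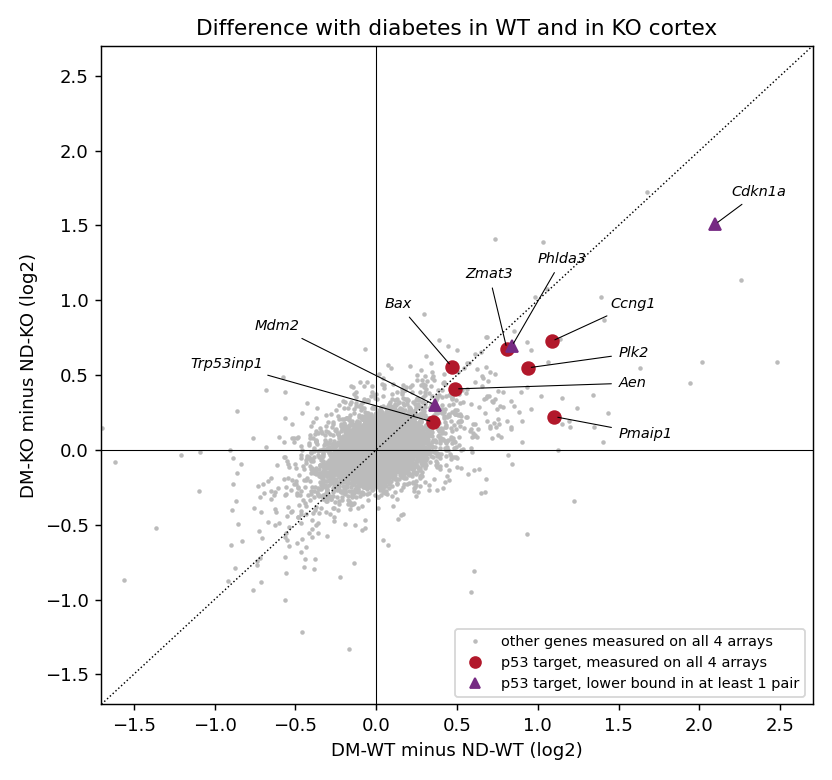
Log2 difference DM-WT minus ND-WT (horizontal) against DM-KO minus ND-KO (vertical) for the p53 targets and for 5907 other genes measured on all 4 arrays, of which 4 lie outside the axes. The p53 targets all lie to the right of 0 and above 0, and Pmaip1 lies far below the dotted line of equal difference.

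The genotype comparisons ask whether lack of ICAM-1 went with another level of these genes. Pmaip1 was lower on DM-KO than on DM-WT by 2.48-fold (place 6100 of 6111 genes from the highest) and lower on ND-KO than on ND-WT by 1.35-fold. Cdkn1a was lower on DM-KO than on DM-WT by 1.54-fold and was above background on neither nondiabetic array. These 2 were the genes of the set that passed 1.5-fold downward on DM-KO relative to DM-WT, of 10 measured, against 1.06% of 6111 genes, and none passed it upward, against 0.769%. The DM-WT array also served to choose the genes, so this count is a description. The other 8 differed between DM-KO and DM-WT by -0.18 (Phlda3) to 0.19 (Bax) on the log2 scale.

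On the nondiabetic arrays, 7 genes were measured in both genotypes and 6 were higher on ND-KO, with a median difference of 0.10. Neither direction passed 1.5-fold, against 0.176% of 6258 genes upward and 0.447% downward. Ccng1 had the largest increase of the set, 1.33-fold (place 46 of 6258), and Plk2 followed at 1.19-fold.

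Genotype was tested in limma over all 4 arrays with diabetes as a covariate, which leaves 1 residual degree of freedom, with the variance moderated over 6512 genes. With 1 array per group, a gene's residual is the gap between its diabetes differences in the 2 genotypes, not a spread among mice. The same holds for the diabetes term of this fit, used further below. None of the 10 genes passed a Benjamini-Hochberg adjusted p of 0.05 over all genes, and 1 of 10 had an unadjusted p under 0.05. In the same fit 0.0461% of all genes passed, 2 higher and 1 lower in KO mice, and 592 had an unadjusted p under 0.05. The gene with the lowest p was Pmaip1, with a KO minus WT log2 difference of -0.87 (SE 0.224, limma p 0.0162, adjusted p 0.437), lower in KO in both diabetes states. Cdkn1a had a log2 difference of -0.32 (SE 0.158, adjusted p 0.598 in limma), with both nondiabetic values below background. Ccng1 at 0.24 (SE 0.107) and Bax at 0.15 (SE 0.0648) were higher in KO mice, with limma adjusted p of 0.584 and 0.577. The remaining 6 lay between -0.13 and 0.06, with adjusted p between 0.609 and 0.944 in limma. A p that misses the threshold does not show that genotypes were alike.

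**Figure D3:**
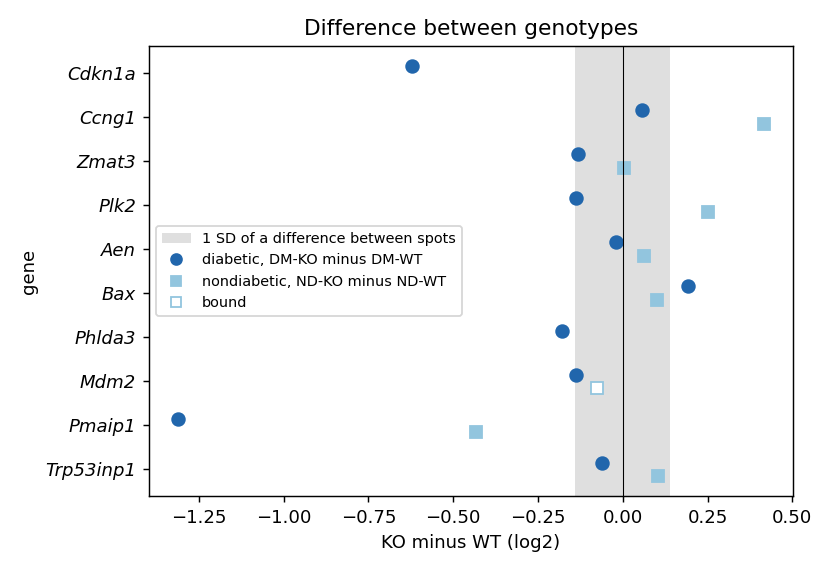
KO minus WT log2 difference of each p53 target on the diabetic arrays (circles) and on the nondiabetic arrays (squares, open where it is a bound), with a grey band of 1 SD of a difference between spots. Pmaip1 lies left of the band at both diabetes states, at -1.31 and -0.43, and Ccng1 lies right of it on the nondiabetic arrays alone, at 0.42.

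The difference with diabetes can be set side by side in the 2 genotypes for the 7 genes measured on all arrays. It was smaller in KO than in WT mice for 6 of the 7. The WT difference helped to choose the genes, and differences of all genes spread less in KO mice (SD 0.166) than in WT mice (SD 0.242), so this count is read no further. Pmaip1 showed the largest gap, with 0.22 in KO and 1.10 in WT mice, a gap of -0.88 that ranked 24 from the lowest of 5914 genes. Plk2 and Ccng1 had gaps of -0.39 and -0.36, at places 175 and 199 from the lowest. For Zmat3, Aen, Bax and Trp53inp1 the gap lay between -0.17 and 0.09. With 1 array per group the gap could not be tested.

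Genes upstream of these targets differed little between arrays. Trp53 itself, which encodes p53, had log2 intensities of 6.58 on DM-WT and 6.57 on ND-WT, and 6.78 on DM-KO and 6.65 on ND-KO, a limma difference with diabetes of 0.07 (SE 0.0684, adjusted p 0.715). p53 protein, through which Mdm2 and the damage kinases act, was not measured. Of 15 listed genes of p53 and its regulators on the array, 10 could be tested and none passed in limma, with 1 at an unadjusted p under 0.05. That gene was Hipk2, a p53 kinase printed in the edge columns and not usable on DM-WT, with a limma difference of -0.19 (adjusted p 0.343), the largest of the list. Brca1, also among the 10, was usable on the diabetic arrays alone and entered the fit only through them. Among regulators measured on all 4 arrays the largest differences in a pair were those of Chek2, a checkpoint kinase, at 0.22 in WT and 0.10 in KO mice, and of Mdm4, the partner of Mdm2, at -0.07 and -0.19. Atr, a kinase that senses stalled replication, had differences of -0.15 and -0.04. The list's medians were 0.01 in WT and -0.03 in KO mice.

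Further p53 targets outside the 10 genes came from 3 lists, of arrest and stress, of cell death, and of DNA repair and metabolism, with 41 of 51 listed genes on the array. In WT mice 24 of 29 measured genes were higher on DM-WT, where 50.1% of all genes were higher. Of the 29, 2 were higher by at least 1.5-fold, against 1.75% of all genes, and none was lower by as much, against 0.875%, and the median difference was 0.15. In KO mice 22 of 30 were higher on DM-KO, where 47.8% of all genes were higher. Again 2 were higher by at least 1.5-fold, against 0.536% of all genes, and none was lower by as much, against 0.505%, and the median was 0.06. None of the 30 tested genes passed the diabetes term in limma, in which 0.0154% of all 6512 genes passed, while 4 had an unadjusted p under 0.05, a level reached by 12.8% of all tested genes (832 of 6512).

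The 2 genes past 1.5-fold were Gdf15 and Ephx1 in both genotypes. Gdf15, a secreted stress cytokine, had log2 intensities of 7.71 on DM-WT and 6.30 on ND-WT, and 7.32 on DM-KO and 6.45 on ND-KO. Ephx1, a microsomal epoxide hydrolase, had 9.04 on DM-WT and 7.65 on ND-WT, and 8.74 on DM-KO and 7.72 on ND-KO. Both genes had diabetic values well above nondiabetic ones, with limma differences of 1.14 (SE 0.146, adjusted p 0.147) for Gdf15 and 1.21 (SE 0.109, adjusted p 0.118) for Ephx1. Under median scaling their adjusted p became 0.0204 and 0.0134, and with the edge spots left out 0.0229 and 0.0144, so the call depends on those settings.

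Of the other targets of arrest and stress, Ddit4, an inhibitor of mTOR signalling, differed by 0.52 in WT and 0.00 in KO mice, Gadd45a, a damage response gene, by 0.43 and 0.06, and Btg2, an antiproliferative gene, by 0.40 and 0.08. Whether these differences vary between the genotypes was not tested. Sertad1, of the same list, differed by 0.06 in WT and -0.24 in KO mice. In that list 11 of 12 measured genes were higher on DM-WT and 8 of 13 on DM-KO, against 50.1% and 47.8% of all genes. Among cell death targets, Siva1, which binds death receptors, differed by 0.24 and 0.20, the death receptor Fas by 0.15 and 0.19, the inflammatory protease Casp1 by 0.15 and 0.07, and Perp, a membrane protein, by -0.21 and 0.01. The 8 measured genes of this list had medians of 0.08 in WT and 0.05 in KO mice. Of repair and metabolism, the thiamine transporter Slc19a2 differed by 0.28 and 0.29, the translesion polymerase Polk by 0.27 and 0.10, and the ribosomal protein gene Rps27l by 0.21 and 0.11. Dcxr, of that list, was lower on DM-WT, at -0.21 in WT and 0.04 in KO mice.

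**Figure D4:**
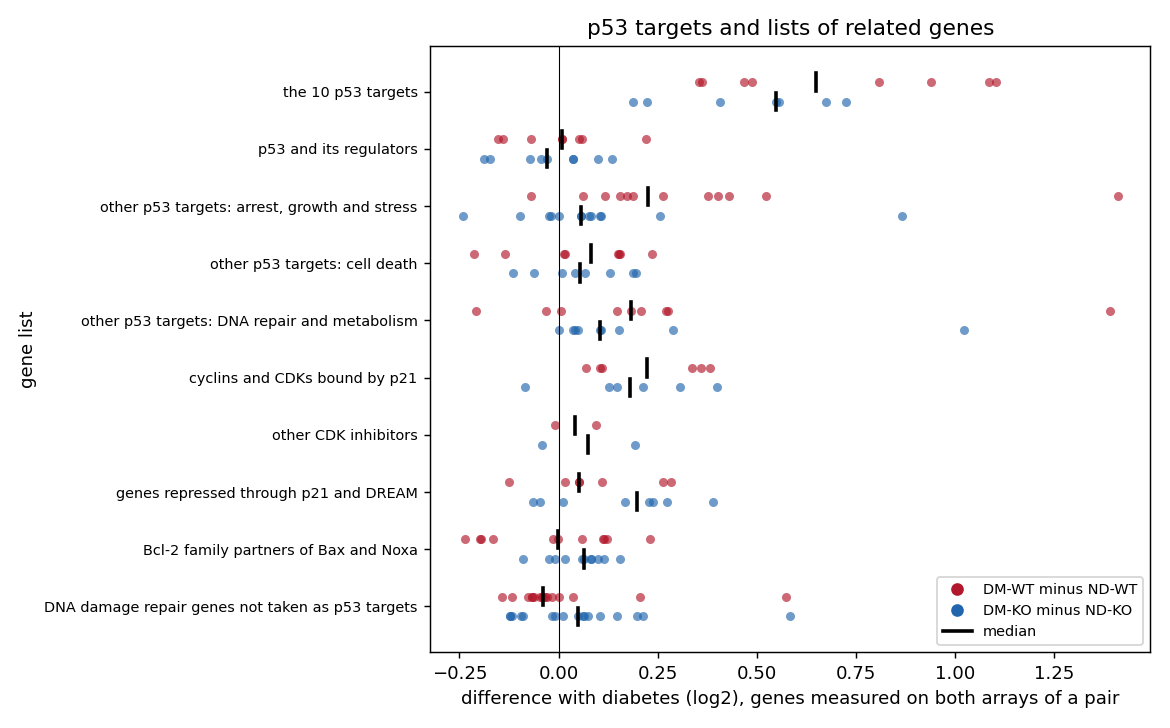
Log2 differences with diabetes in WT (red, upper) and KO mice (blue, lower) for the 10 p53 targets and for 9 lists of related genes, 1 point per gene measured on both arrays of a pair, with a black bar at the median. The medians of the 10 targets are 0.65 and 0.55, and Gdf15 and Ephx1 are the points of the other target lists past 0.85 in both genotypes.

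The partners of the p21 protein were also listed. Of 11 cyclins and kinases that p21 binds, 6 were measured, with median differences of 0.22 in WT and 0.18 in KO mice. All 6 were higher in WT and 5 in KO diabetic mice, where 50.1% and 47.8% of all genes were higher. None was at least 1.5-fold higher, against 1.75% and 0.536% of all genes, and none as much lower, against 0.875% and 0.505%. Cdk1, the mitotic kinase, differed by 0.38 in WT and 0.40 in KO mice (limma adjusted p 0.171), cyclin D1 (Ccnd1) by 0.34 and 0.31, the replication clamp Pcna by 0.36 and 0.21, and Cdk4 by 0.11 and 0.15. None of the 6 passed in limma. Of the other inhibitors of these kinases, Cdkn1c differed by -0.01 and 0.19 and Cdkn2c by 0.09 and -0.04, against the bounds of at least 2.10 and at least 1.51 for Cdkn1a.

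Genes that p21 is known to silence through the DREAM complex, most of them needed for DNA replication and mitosis, numbered 23 on the array, 9 of them above background on none. In WT mice 6 of 7 genes measured on both arrays were higher on DM-WT, against 50.1% of all genes, with a median of 0.05. A further 5 were usable on DM-WT alone, which the median leaves out. In KO mice 6 of 8 were higher on DM-KO, against 47.8% of all genes, with a median of 0.20. That median leaves out 5 genes with bounds, 3 higher and 2 lower, of which 4 were usable on DM-KO alone. The helicase subunit Mcm6 differed by 0.28 and 0.27, the ribonucleotide reductase subunit Rrm2 by 0.26 and 0.17, and the mitotic kinesin Kif20a by -0.13 and 0.39. Birc5, which encodes survivin, was usable on DM-WT but not on ND-WT, with a difference of at least 0.47, and differed by 0.24 between the KO arrays. None of 11 tested genes passed in limma, and 5 had an unadjusted p under 0.05, against 12.8% of all genes. Ccnb2, which is among the 5, and Mki67, which is not, were usable on the diabetic arrays alone. Both entered the fit only through the arrays where they were higher, so this count is a description.

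Relatives of Bax and Noxa in the Bcl-2 family had medians of 0.00 in WT and 0.06 in KO mice over 11 measured genes. Of these, 5 and 8 were higher, where 50.1% and 47.8% of all genes were higher. Mcl1, the partner of Noxa, differed by 0.23 and 0.08, Bik, a death-promoting member, by -0.24 and -0.09, Bcl2l2, a protective member, by -0.20 and 0.06, and the cytochrome c gene Cycs by -0.20 and -0.02. None of the 11 passed in limma, and none had an unadjusted p under 0.05. DNA repair genes that are not usual p53 targets had medians of -0.04 over 16 genes in WT and 0.05 over 17 genes in KO mice.

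One gene of that repair list stood out, Mgmt, which removes methyl groups from guanine in DNA. Mgmt had log2 intensities of 6.88 on DM-WT and 6.31 on ND-WT, and 6.91 on DM-KO and 6.33 on ND-KO. Diabetic arrays were higher by nearly the same amount in both genotypes, 0.57 in WT and 0.58 in KO mice, with a limma difference of 0.58 (SE 0.0611, adjusted p 0.131). The adjusted p was 0.0352 under median scaling and 0.0245 with the edge spots left out. Ercc1, an excision repair nuclease, differed by 0.04 in WT and 0.21 in KO mice, the ligase Lig1 by 0.20 and -0.12, and Apex1, which cuts DNA at lost bases, by -0.03 and 0.20.

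Genes whose pattern over the 4 arrays was most like that of Cdkn1a were found by Euclidean distance between log2 values centred on each gene's own mean, among 6071 genes usable on both diabetic arrays. The nearest were Aldh1a1, a retinaldehyde dehydrogenase, at 0.43, a probe without a symbol at 0.59, Ephx1 at 0.80, Lgals3bp at 0.84 and Gdf15 at 0.86. Within the set, Phlda3 (place 22, distance 1.20) and Ccng1 (place 23, distance 1.21) were nearest, and Mdm2 and Trp53inp1 were farthest, at places 181 and 266. Values were not scaled, so the distance depends on the size of the differences as well as on their direction. Within the set it draws on the differences known when the genes were chosen. The distance is a description over 4 arrays, 2 of which had Cdkn1a below background.

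Markers of cell types were set beside these genes, and over all genes 50.1% were higher and 1.75% at least 1.5-fold higher on DM-WT, and 47.8% and 0.536% on DM-KO. Proximal tubule markers, 11 of 12 listed on the array and all usable on at least 1 array, had a summed linear intensity of 15326 on DM-WT and 17587 on ND-WT, and 17462 on DM-KO and 18410 on ND-KO, so markers of cortex were present on every array. Their medians were -0.14 in WT and -0.10 in KO mice. Each sum in this paragraph takes in every listed gene with a value on all 4 arrays, also genes not above background. Each value holds the offset of 50 from background correction, which weighs most where genes are dim, as in the lymphocyte list. The sums are therefore not marker abundance alone. Thick limb and distal tubule markers were higher in 7 of 8 measured cases on DM-WT (2 by at least 1.5-fold, median 0.30) and in 4 of 7 on DM-KO (median 0.08). Their sums were 11515 on DM-WT and 8135 on ND-WT, and 9035 on DM-KO and 8434 on ND-KO. In this list the calcium-binding protein gene Calb1 differed by 0.93 in WT and 0.72 in KO mice, Pvalb by 0.69 and 0.36, and the salt cotransporter gene Slc12a3 by 0.53 and 0.32. Calb1 was the brightest of the list on DM-WT and ND-WT, at log2 12.45 and 11.52, and weighs most in the WT sums. Egf, of the same list, went down in both genotypes, at -0.24 in WT and -0.23 in KO mice. Umod went down in KO mice alone, at 0.16 in WT and -0.44 in KO mice. Collecting duct markers were higher in 5 of 7 cases on DM-WT (median 0.07) and in 5 of 6 on DM-KO (median 0.17), with sums of 2509 on DM-WT and 2218 on ND-WT, and 2769 on DM-KO and 1917 on ND-KO. The water channel gene Aqp2 differed by 0.30 in WT and 0.91 in KO mice. Aqp2 was the brightest of that list on every array, at log2 10.59 on DM-KO and 9.69 on ND-KO, and weighs most in its sums. Macrophage and monocyte markers were higher in 7 of 7 measured cases on DM-WT (4 by at least 1.5-fold, median 0.83) and in 6 of 6 on DM-KO (median 0.36), with sums of 1814 on DM-WT and 1117 on ND-WT, and 1445 on DM-KO and 1163 on ND-KO. The defining macrophage genes Adgre1 and Itgam were above background on no array. Tubule injury markers were higher in 8 of 8 cases on DM-WT (median 0.45) and in 7 of 9 on DM-KO (median 0.38), with sums of 2826 on DM-WT and 1989 on ND-WT, and 2834 on DM-KO and 2109 on ND-KO. Lymphocyte markers had sums of 1095 on DM-WT and 969 on ND-WT, and 1035 on DM-KO and 1024 on ND-KO, and Cd3e, Cd8a, Cd79b and Ms4a1 were above background on no array. Ighm, an antibody heavy chain gene, was below background on ND-WT and differed by at least 1.34 in WT and by 0.27 in KO mice. Jchain differed by 0.45 and -0.20, while Cd79a went the other way, at -0.52 and 0.17. The part of these cell type differences in the levels of the p53 targets was not tested.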

How the data were processed

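Cortex RNA of 4 groups was measured on 1 CodeLink array each. The deposited scanner tables hold each spot's mean intensity and median local background intensity on a linear scale, with a quality mark, per the file headers. The arrays were scanned and read with the CodeLink software, per the labels. The authors' deposited value table holds intensity that equalled spot mean minus background divided by 1 constant per array (38.1, 43.9, 46.9 and 45.0 for DM-WT, ND-WT, DM-KO and ND-KO) for 100% of compared probes within 0.1%, so its direction is known, it is linear and not centred, and the basis of the constant is unknown. Its column medians were 0.930, 0.926, 0.930 and 0.929.

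From the scanner tables, intensities were corrected with normexp (offset 50) on every spot (limma 3.58.1, R 4.3.3), and the log2 of gene probes was quantile-normalized between arrays. Poor spots were set to missing. Of 10032 gene probes, 8923 were named from the platform annotation, 286 through a RefSeq accession, and 823 had no single symbol. Probes of a gene were averaged. The additive limma fit used diabetes and genotype over 6512 genes usable on at least 2 arrays, with dim values as they were and 1 residual degree of freedom, and genes were called at a Benjamini-Hochberg adjusted p below 0.05. Pairs of arrays were described at 1.5-fold without a test. The fit was tested on simulated data with known changes. The number of arrays limits the precision.

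The 10 genes, the lists and the settings were chosen with earlier results of these data known. The lists came from general knowledge of the pathway and the cell types. From each list of related genes, genes passing limma and up to 4 measured genes with the largest difference with diabetes were named. Trp53 was named as the gene of p53 itself. From the lists of cell type and injury markers only some genes were named, among them markers cited as not above background. Endothelial markers, with medians of 0.07 in WT and -0.02 in KO mice, and podocyte markers, with 1 gene measured, were listed but not described further. Some genes that limit a count or sum, or go against their list, were named too. The motif search allowed at most 2 mismatches outside the invariant bases. The alternatives were another offset (16), no background correction, the deposited value table, median scaling, no filter on dim spots, edge spots left out, an intensity trend in limma, and each factor without the other as covariate.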

Additional observations from a re-analysis of the deposited data

Results flagged for a closer look

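Among the marker genes set beside the p53 targets, 4 differed with diabetes in opposite directions in the 2 genotypes by more than the spread between spots. Umod, a thick limb gene, had a log2 difference of -0.4361 for DM-KO minus ND-KO and 0.1554 for DM-WT minus ND-WT. Cd79a, a B cell gene, had 0.1707 in KO and -0.5212 in WT mice. Jchain, the joining chain of secreted antibodies, had -0.2027 in KO and 0.4532 in WT mice. Hnf4a, a proximal tubule regulator, had 0.9269 in KO mice and a bound of -1.0827 or lower in WT mice, where its probe lies in the edge columns and was not usable on DM-WT. With 1 array per group these differences between genotypes were not tested. None of the 10 p53 targets went in opposite directions.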

How the results depend on the processing

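With diabetes, the targets kept their direction in 118 of 118 values under other settings, 90 of them within the spot spread of the value reported, and between genotypes in 102 of 106. The targets were chosen with their diabetes differences known, and a bound with only the diabetic spot usable tends to be positive by construction. The agreement with diabetes is therefore a description. Cdkn1a ranged from 2.00 (median scaling) to 3.80 (deposited value table) in WT and from 1.51 to 3.12 in KO mice, and Pmaip1 from -1.66 to -1.19 for DM-KO minus DM-WT. Its limma genotype adjusted p ranged from 0.167 to 0.881 over 9 settings. Counts moved more. Genes at least 1.5-fold higher on DM-WT numbered 106, against 171 with offset 16, 213 in the value table and 69 under median scaling. On DM-KO they numbered 34, against 61 with offset 16 and 87 in the value table, and targets among them numbered 2, against 4 under both and with no filter. Targets at least 1.5-fold lower on DM-KO than on DM-WT numbered 2, and 1 under median scaling. Genes rising with diabetes in limma numbered 1, against 0 with offset 16, no background correction, the value table, an intensity trend or no genotype covariate, 30 under median scaling and 52 without edge spots. Genes falling numbered 0, against 52 and 43 under the last 2, where 2 genes of the p53 network passed (Gdf15 and Ephx1) and otherwise 0. For genotype, 2 genes rose, against 1 with offset 16, 0 in the value table and 7 under median scaling, and 1 fell, against 0 with offset 16, no background correction, the value table, an intensity trend or no diabetes covariate, 7 under median scaling and 10 without edge spots. Genes at an unadjusted genotype p under 0.05 numbered 592, and 372 with no diabetes covariate. Fewer genes were tested with the value table and without edge spots, and otherwise the cause was not tested. No paired analysis was possible because each group had 1 array, which also leaves no array to leave out. Dim spots limit Cdkn1a, Phlda3 and Mdm2, whose differences rest on bounds.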
